A study of Mus musculus with 4 samples.

Results

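The Zfp genes of mouse encode zinc finger proteins, and 294 of them were described here in activated CD8+ T cells. They are the protein-coding genes whose symbol begins with Zfp and a number and that were chosen by having at least 20 counts in each of the 4 libraries. The table holds 394 protein-coding genes of this name among 53465 genes, so 100 were left out by the count minimum. The group was proposed because of Zfp568, whose difference between the libraries was known, so its values are a description and not a test.

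CD8+ T cells were purified from mouse spleen and activated for 24 h on beads with antibodies to CD3 and CD28, which engage the T cell receptor and its costimulatory receptor. The comparison was between 2 libraries from wild-type (WT) mice and 2 from PP2Cm KO mice, that is, animals lacking the phosphatase PP2Cm (PP2Cm-/-). PP2Cm, encoded by Ppm1k, acts in mitochondria on the breakdown of branched-chain amino acids. All 4 libraries share the tissue, the cell type and the activation, and resting cells were not analysed here. Neither the kind of allele, the strain, the age nor the number of mice behind a library is stated in the labels, which call the 2 libraries of each genotype biological replicates.

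Most Zfp genes encode proteins with tandem C2H2 fingers, each a small fold in which 2 cysteines and 2 histidines hold a zinc ion and a short helix reads DNA. Many also carry a KRAB domain, which recruits the corepressor KAP1 (Trim28). KAP1 in turn brings in the histone methyltransferase Setdb1, and this machinery is known for silencing endogenous retroelements and for keeping imprinted marks. KRAB zinc finger genes arose by repeated duplication and lie in clusters of related copies. A few Zfp genes encode CCCH fingers instead, which bind AU-rich elements of mRNA and direct it to decay, a known brake on cytokine production in T cells.

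The targeted gene was examined first, and it went against the labels. In each pair of values joined by "against", replicates 1 and 2 labelled WT come first and replicates 1 and 2 labelled KO second. Ppm1k had 102 and 94 against 157 and 206 counts, a log2 fold change of 0.97 ± 0.23 (SE). The description codes of the samples also name the genotype opposite to their titles. Every direction is therefore given as the libraries labelled KO against those labelled WT, and each sign would turn if the codes were right. Library totals ranged from 12967251 to 17316284 counts. The summed level of 8 CD8 T cell markers was 3504 and 3949 against 3398 and 3041 CPM (counts per 1000000, scaled by TMM). Summed B cell markers stood at 12.7 and 15.2 against 12.4 and 6.71 CPM, and CD4 and regulatory T cell markers at 13.8 and 22.1 against 21.4 and 13.5 CPM. Within these sums genes went different ways. Gzmb made up 1021 and 1651 against 1156 and 994 CPM of the CD8 sum. Cd79b made up 10.3 and 10.1 against 7.74 and 5.61 CPM of the B cell sum. Of the CD8 list, Cd8a was at -0.01 on the log2 scale, while Cd3d (-0.52), Cd3g (-0.41) and Lck (-0.30) had an unadjusted p under 0.05. Cd4, with 39 and 80 against 133 and 74 counts, stood at 0.96 and Foxp3 at 0.93, whereas Zbtb7b stood at -0.71, and none of them passed the adjusted threshold. Myeloid, NK and erythroid or platelet markers each summed to at most 5.47 CPM in any library, with S100a9 and Alas2 at 0 in all 4. The part of such cells in the results was not tested.

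The members were genes of low level. The deposited FPKM, averaged over the 4 libraries, had a median of 1.84 over the members and 5.17 over all 13528 genes tested. All 294 members passed the filter on low counts. A KRAB domain was found in 178 of them by a sequence profile, and these had a median FPKM of 1.26. The proteins had a median of 10 C2H2 fingers, with a range from 0 in 8 proteins to 36 in Zfp142. The highest member by FPKM was Zfp36l2, a CCCH protein of mRNA decay, with a mean of 59.3. It was followed by Zfp598, the ubiquitin ligase that marks collided ribosomes, with 40.5, and by Zfp106, an RNA-binding protein, with 31.5. Zfp280b at 28.8 and Zfp706 at 28.3 came next, and none of these 5 carries a KRAB domain.

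As a group the members leaned toward higher levels in the libraries labelled KO, but the lean was not shared by the replicates. The median log2 fold change was 0.09, with quartiles of -0.05 and 0.25, and 198 of 294 members were above 0. Over all genes tested the median was -0.01, and 48.1% were above 0. With the size factors of DESeq2 in place of TMM, 205 members were above 0. Members together took 0.691% and 0.614% against 0.689% and 0.756% of all counts. Labelled WT replicate 2 was therefore the lowest and labelled KO replicate 2 the highest, and the other 2 libraries were level. Without labelled WT replicate 2 the median fell to 0.00, and without labelled KO replicate 2 to 0.01, with 149 of 294 members above 0 in each case. Without labelled WT replicate 1 it was 0.19 with 221 above 0, and without labelled KO replicate 1 it was 0.16 with 211 above 0.

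**Figure D1:**
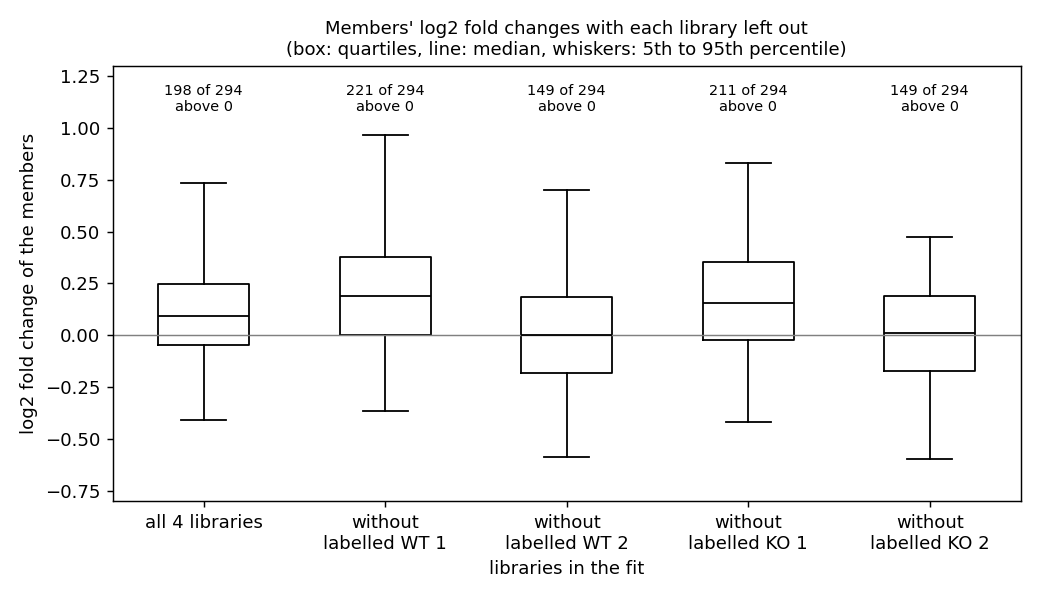
Log2 fold changes (labelled KO minus labelled WT) of the 294 members, on the vertical axis, in the fit of all 4 libraries and with each library left out, on the horizontal axis. Boxes are quartiles, the line inside is the median and whiskers reach the 5th and 95th percentiles; 198 members lie above 0 with all libraries and 149 without labelled KO replicate 2.

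KRAB members and the others differed little in this respect. The median was 0.10 over the 178 KRAB members, 119 of which were above 0, and 0.09 over the 116 without KRAB, 79 of which were above 0. With labelled KO replicate 2 left out, 77 of the KRAB members and 72 of the others remained above 0, at medians of -0.04 and 0.08. Without labelled WT replicate 2, the medians were -0.02 and 0.02. The KRAB members thus moved more with the choice of libraries than the others did, which was not tested.

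Few members were separated one by one. By the edgeR quasi-likelihood test with Benjamini-Hochberg adjustment over all genes, 1 member passed an adjusted p of 0.05. That is 0.34% of members against 0.207% of all genes tested. The member was Zfp568, whose difference was known when the group was proposed, so this share is no test. At an unadjusted p under 0.05 there were 18 higher members, or 6.12% against 5.7% of all genes. On the lower side there were 7, or 2.38% against 7.23%. Both replicates labelled KO exceeded both labelled WT in 67 members, 22.8% against 21.5% of all genes. They fell short of both in 32 members, 10.9% against 23.3%. The shares on the higher side were thus near the background, and those on the lower side were under it. The members' median log2 fold change moved with single libraries. It was 0.00 when labelled WT replicate 2 was left out and 0.19 when replicate 1 of that label was. Whether the share on the lower side stays under the background in such fits was not tested. DESeq2 called 6 members, 2.04% against 2.31% of the genes to which it gave an adjusted p. They were Zfp568, Zfp930, Zfp426 and Zfp990 on the higher side and Zfp263 and Zfp395 on the lower side.

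**Figure D2:**
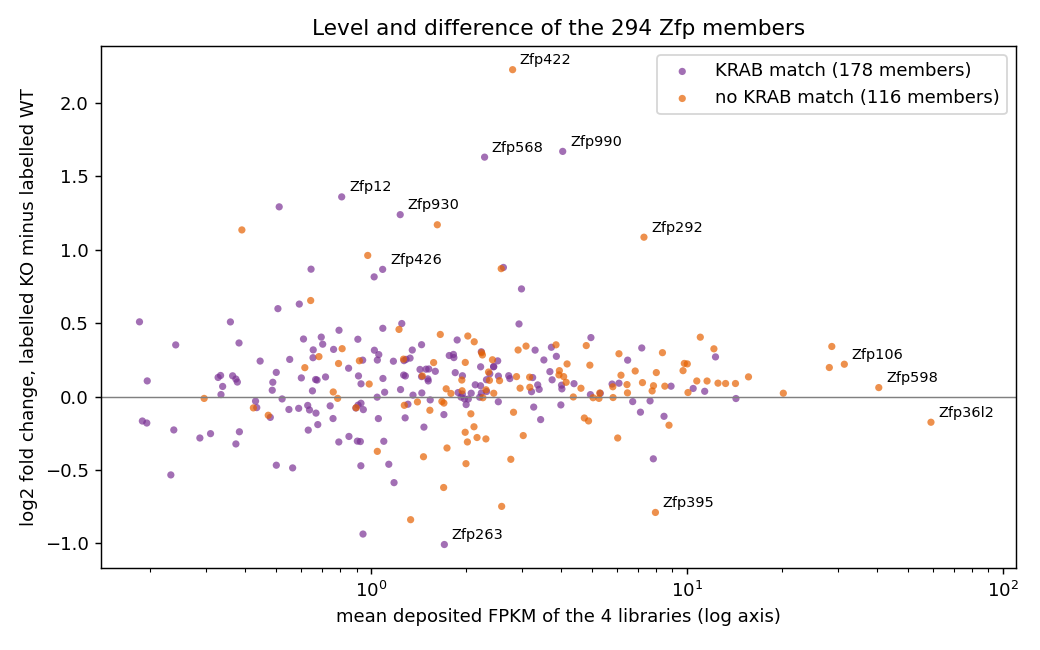
Mean deposited FPKM over the 4 libraries (horizontal, log axis) against log2 fold change, labelled KO minus labelled WT (vertical), 1 point per member, purple with and orange without a KRAB match. Most of the 294 points lie near 0, and the few beyond 1 or -1 include Zfp568, Zfp990, Zfp422, Zfp292 and Zfp263.

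Zfp568 was the member that passed. It encodes a KRAB protein with 11 fingers, known to silence a placental transcript of the growth factor gene Igf2 and to be needed in the gastrulating mouse embryo. It had 188 and 215 against 559 and 605 counts. Scaled, these were 14.4 and 12.7 against 42.0 and 41.9 CPM, so the replicates lay close together and the groups far apart. It was 3.1-fold higher in the libraries labelled KO, with a log2 fold change of 1.63 ± 0.16 (SE). Of the 31-base words of its exons, 99.5% occur in no other gene of the annotation, and its locus overlaps no other gene. How its reads were assigned was not tested. In bulk RNA, more cells that express a gene and more RNA per cell cannot be told apart. Without labelled KO replicate 2 the log2 fold change was 1.64, but the call was lost by edgeR (adjusted p = 0.134).

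Igf2, its known target, was at the limit of detection. It had 0 and 0 against 0 and 3 counts, and its neighbour H19 had 5 and 2 against 6 and 7, so neither was tested. At this depth no difference in Igf2 could be read.

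With all 4 libraries, no neighbour of Zfp568 passed the threshold. Zfp568 lies on chromosome 7 from 29983955 to 30028282 on the plus strand in GRCm38, in a run of 13 members. Of the other 12, all had a log2 fold change between -0.31 and 0.50, and the median of the 13 was 0.02, with a range of -0.12 to 0.21 with 1 library left out. Zfp74, the nearest member upstream, had 163 and 178 counts against 148 and 173, a log2 fold change of 0.01 ± 0.18 (SE). Zfp82, the nearest downstream, had 149 and 172 against 87 and 156, at -0.31 ± 0.26. Zfp940 was the largest of the 12 at 0.50 ± 0.20, with 120 and 160 against 151 and 216 counts and an adjusted p of 0.369 by edgeR. Zfp566, with 120 and 139 against 160 and 158 counts, stood at 0.40 ± 0.18 (adjusted p = 0.425). Zfp260 had 66 counts in labelled WT replicate 1 and 350, 222 and 207 in the other 3, a log2 fold change of 0.25 ± 0.54, and of 1.61 without labelled WT replicate 2, where it passed the threshold (adjusted p = 0.0195 by edgeR). The range of its adjusted p over the settings reached 0.993. The remaining 7 members, Zfp84, Zfp790, Zfp420, Zfp27, Zfp383, Zfp382 and Zfp146, lay between -0.14 and 0.09. Zfp14, between Zfp568 and Zfp82, missed the minimum with 17 and 21 against 24 and 12 counts. Of the tested genes within 500 kb that are no members, Nfkbid had the lowest p. It had 1101 and 1228 against 1662 and 1929 counts, at 0.72 ± 0.12 (adjusted p = 0.0891 by edgeR).

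**Figure D3:**
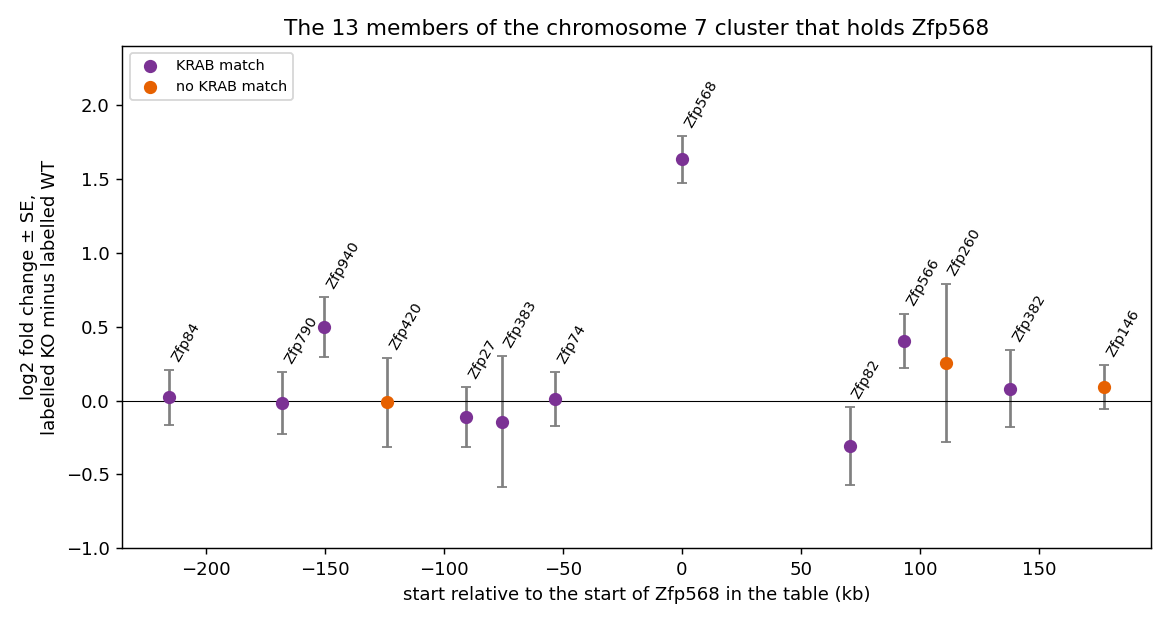
Log2 fold change ± SE, labelled KO minus labelled WT (vertical), of the 13 members in the chromosome 7 run, by distance of their start from that of Zfp568 in kb (horizontal). Zfp568 stands at 1.63, and the other 12 lie between -0.31 and 0.50.

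Among the 10 members of lowest p on the higher side, the KRAB members besides Zfp568 were Zfp930, Zfp426, Zfp990, Zfp933 and Zfp12, and none of them passed the adjusted threshold in edgeR. Zfp930 on chromosome 8 had 67 and 83 against 140 and 190 counts. The groups did not overlap, as in 21.5% of all genes tested on the higher side. Its log2 fold change was 1.24 ± 0.21 (adjusted p = 0.0883 by edgeR). The other 4 members of its run, Zfp868, Zfp869, Zfp963 and Zfp866, lay between -0.05 and 0.09. Zfp426 on chromosome 9 had 140 and 185 against 248 and 301 counts, or 10.8 and 10.9 against 18.6 and 20.8 CPM. Its log2 fold change was 0.87 ± 0.16 (adjusted p = 0.115 by edgeR). The other 4 members of its run, Zfp560, Zfp26, Zfp266 and Zfp846, were above 0 as well, at 0.02 to 0.35. Without labelled WT replicate 2, and likewise without labelled KO replicate 2, only 3 of the 5 members of this run were above 0. Zfp990 on chromosome 4 had 78 and 151 against 188 and 484 counts, with a wide spread inside each label and a log2 fold change of 1.67 ± 0.41 (adjusted p = 0.19). Only 51.2% of its 31-base words are its own, and the labels do not state how shared reads were divided. Zfp933, further along the chromosome, had 135 and 165 against 183 and 283 counts, at 0.73 ± 0.22.

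Members without KRAB on the higher side included a pair of related nuclear factors known to act on Rag gene expression in thymocytes. Zfp609 had 87.4 and 80.8 against 115 and 108 CPM, a log2 fold change of 0.40 ± 0.11 (adjusted p = 0.234 by edgeR). Zfp608 was barely detected, with 22 and 22 against 53 and 37 counts and a log2 fold change of 1.14 ± 0.37. In both genes the groups did not overlap, as in 21.5% of all genes tested on the higher side. Zfp91, a ubiquitin ligase of the noncanonical NF-kappaB pathway, had 124 and 107 against 142 and 148 CPM, at 0.33 ± 0.12.

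The 2 members with the lowest unadjusted p on the lower side were Zfp263 and Zfp395. Zfp263, a KRAB member on chromosome 16, had 462 and 496 against 207 and 239 counts. That is 35.5 and 29.2 against 15.6 and 16.5 CPM, a log2 fold change of -1.01 ± 0.17 (adjusted p = 0.0883 by edgeR), with no overlap of the groups. Zfp395, known from human cells as a factor induced by low oxygen, had 70.5 and 49.8 against 32.3 and 37.2 CPM, at -0.79 ± 0.20 (adjusted p = 0.197). Zfp605, another KRAB member, had 112 and 105 against 44 and 63 counts, at -0.94 ± 0.28. Zfp3 had 47 and 59 against 22 and 33 counts, near the count minimum, at -0.84 ± 0.31. Zfp954 at -0.42 ± 0.15 and Zfp949 at -0.59 ± 0.25 were KRAB members whose groups did not overlap either. Over all genes tested, 23.3% had both replicates labelled KO below both labelled WT. Zfp414 and Zfp41, at -0.43 ± 0.22 and -0.35 ± 0.18, completed the 10 lowest p on this side with Zfp831 and Zfp524.

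**Figure D4:**
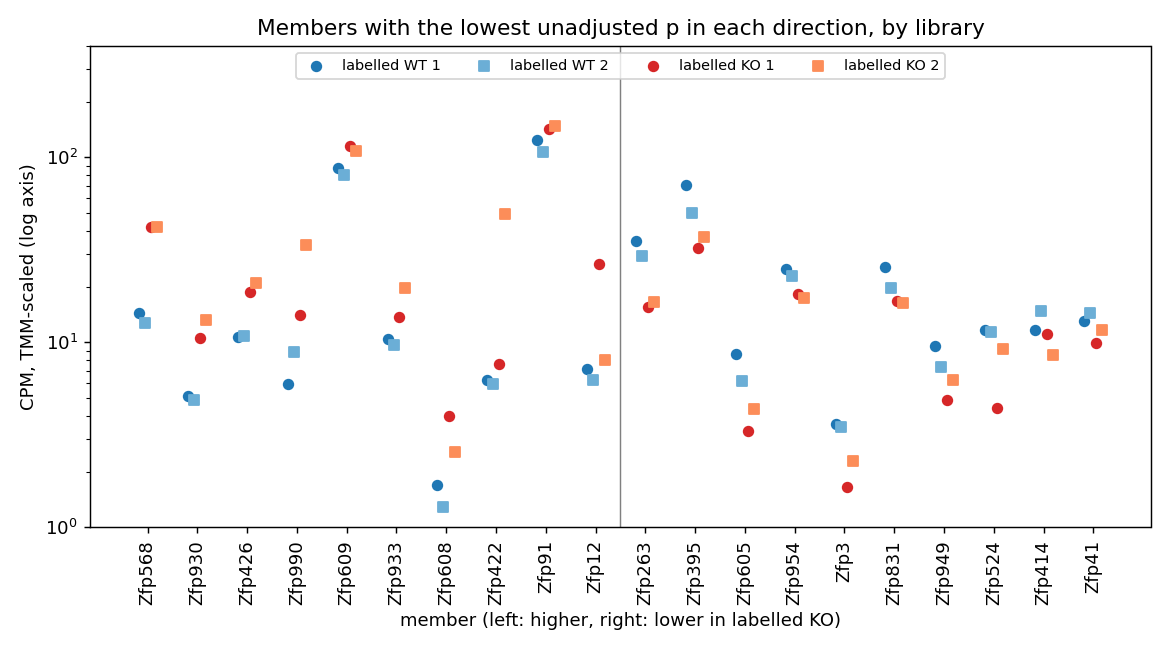
CPM scaled by TMM (vertical, log axis) in each library for the 10 members with the lowest unadjusted p on the higher side (left of the line) and on the lower side (right), blue for libraries labelled WT and red or orange for labelled KO. Zfp568 shows tight pairs at 14.4 and 12.7 against 42.0 and 41.9 CPM, while Zfp422 and Zfp12 are high in 1 library each.

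Promoters are shown for the 2 members of lowest p on each side that have an entry in the promoter table, so that the sequences upstream of a higher and a lower gene can be read side by side. They are the 250 bases before the RefSeq start in GRCm38.p6, read 5′ to 3′ on the strand of the gene. Capitals mark the letters GGGCGG (GC box), CACGTG (E-box), CCGGAAGT (ETS core) and TGACGTCA (cAMP response element) on either strand. None of these 4 motifs overlaps another in the stretches shown. The windows are chr9:20492747-20492996 for Zfp426 and chr4:147848419-147848668 for Zfp933, both minus strand, and chr16:3743849-3744098 for Zfp263 and chr5:110109842-110110091 for Zfp605, both plus strand.
Zfp426: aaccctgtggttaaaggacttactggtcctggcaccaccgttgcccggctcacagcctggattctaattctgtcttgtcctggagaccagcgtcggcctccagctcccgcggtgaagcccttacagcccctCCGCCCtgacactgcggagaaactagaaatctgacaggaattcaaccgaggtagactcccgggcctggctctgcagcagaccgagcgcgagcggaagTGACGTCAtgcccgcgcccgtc
Zfp933: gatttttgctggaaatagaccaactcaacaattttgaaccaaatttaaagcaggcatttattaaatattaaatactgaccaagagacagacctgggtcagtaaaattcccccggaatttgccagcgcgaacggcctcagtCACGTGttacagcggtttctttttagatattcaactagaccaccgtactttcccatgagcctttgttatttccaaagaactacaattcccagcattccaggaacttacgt
Zfp263: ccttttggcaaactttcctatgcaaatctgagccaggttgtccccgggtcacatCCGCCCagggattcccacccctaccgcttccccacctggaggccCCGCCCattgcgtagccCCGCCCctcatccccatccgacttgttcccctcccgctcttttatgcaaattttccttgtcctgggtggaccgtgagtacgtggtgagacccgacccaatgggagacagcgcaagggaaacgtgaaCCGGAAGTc
Zfp605: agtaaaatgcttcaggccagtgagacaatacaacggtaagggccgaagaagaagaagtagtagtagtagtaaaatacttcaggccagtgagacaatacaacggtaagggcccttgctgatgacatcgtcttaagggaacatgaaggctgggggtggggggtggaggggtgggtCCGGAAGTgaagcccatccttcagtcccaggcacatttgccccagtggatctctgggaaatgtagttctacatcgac
Zfp426 has 1 GC box and the cAMP response element, Zfp933 has 1 E-box, Zfp263 has 3 GC boxes and 1 ETS core, and Zfp605 has 1 ETS core.

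Over the members as a whole, 243 of 294 genes had an entry, with 291 such windows. The ETS core was in 9.28% of them and in 2.88% of all 32851 windows of the table. The cAMP response element was in 4.47% against 1.55%, the GC box in 43.0% against 32.7%, and the E-box in 5.84% against 6.02%. The CCAAT box (CCAAT) was in 47.4% against 33.8% and the TATA box (TATAAA) in 6.53% against 12.4%, both strands searched. KRAB members and the others differed most in the GC box, in 31.6% against 59.2% of windows, and in the CCAAT box, in 54.4% against 37.5%. Their median GC content was 52.4% and 61.8%. Over all member windows it was 55.2%, with a median of 12 CG dinucleotides, against 52.4% and 6 over all windows. Unlike the members, the genes of the promoter table were not chosen by counts, so the 2 sets of windows are not matched. The motif shares are counts of letters and not of bound sites.

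Some members had 1 library apart from the other 3, and their fold changes rest on it. Zfp422 had the largest log2 fold change of all members, 2.23 ± 0.75, from 82 and 101 counts against 102 and 716. Zfp46, at 1.29 ± 0.72, had 31 and 33 against 20 and 130 counts, and Zfp451, a ligase of the SUMO pathway, had 475 and 481 against 475 and 1194. All 3 were high in labelled KO replicate 2 alone. In labelled KO replicate 1 alone, Zfp12 was high with 93 and 106 against 351 and 116 counts, and so was Zfp180 with 110 and 130 against 299 and 129. Zfp292 was low in labelled WT replicate 1, with 215 counts against 1360, 1228 and 1645 in the others. Replicates differed by more than 2-fold in 12 members (4.08%) within each label. Over all genes tested the share was 5.42% within labelled WT and 4.12% within labelled KO. Unlike the members, those genes did not need 20 counts in every library, so the shares are not on equal terms. Among the 27 tested Zfp genes that were no members, they were 22.2% within labelled WT and 29.6% within labelled KO.

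Members known to guard imprints and retroelements other than Zfp568 showed small differences. Zfp445, which protects imprinted marks, had 82.8 and 81.7 against 93.7 and 113 CPM, a log2 fold change of 0.33 ± 0.13 (adjusted p = 0.357 by edgeR). Zfp809, which binds the primer binding site of leukaemia proviruses, stood at 0.27 ± 0.19, and Zfp932, which represses endogenous retroviruses, at 0.19 ± 0.20. All 3 were above 0, as were 67.3% of all members, and none passed. Without labelled KO replicate 2, Zfp445 was at 0.19, Zfp809 at 0.06 and Zfp932 at -0.02. Zfp57, the other known keeper of imprints, had 0, 0, 0 and 3 counts and was no member. Zfp708 with 26, 2, 0 and 0 counts and Zfp819 with 1, 0, 0 and 0 were left out as well.

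The CCCH members of mRNA decay had a mean FPKM of 59.3 (Zfp36l2), 9.72 (Zfp36l1) and 6.04 (Zfp36), and none of them passed the threshold. The median over all genes tested was 5.17. Zfp36l2 had 216 and 229 against 200 and 194 CPM, a log2 fold change of -0.18 ± 0.10 (adjusted p = 0.531 by edgeR). Zfp36, also called tristetraprolin, had 39.6 and 30.2 against 28.3 and 28.9 CPM, at -0.28 ± 0.18. For both genes the libraries labelled KO lay below those labelled WT, as in 23.3% of all genes tested, and neither gene passed the threshold. Zfp36l1 followed the replicate number instead, with 486 and 1150 against 388 and 1295 counts.

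Of 15 genes of the CCR4-NOT deadenylase and its Tob and Btg partners, which CCCH proteins recruit to mRNA, 0 passed the adjusted threshold by edgeR and 0 by DESeq2. At an unadjusted p under 0.05 there was 1 (7.23% of all genes on that side), Btg2, lower with 871 and 971 against 552 and 715 counts and a log2 fold change of -0.45 ± 0.16. The median of the 15 was 0.00.

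Among members with known lymphocyte roles, Zfp831, which acts in follicular helper T cells, was the lower one. It had 25.7 and 19.8 against 16.8 and 16.3 CPM, a log2 fold change of -0.46 ± 0.18 (adjusted p = 0.367 by edgeR). Zfp335, needed for T cell maturation, had 71.7 and 77.1 against 83.2 and 80.2 CPM, at 0.13 ± 0.12. Zfp318, a regulator of IgD expression in B cells, had 68.1 and 47.7 against 64.0 and 77.7 CPM, with overlap of the groups. Zfp683 (Hobit), a factor of tissue-resident memory, missed the minimum with 9 and 8 against 16 and 23 counts.

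The members tied to the ribosome showed no difference beyond the replicates. Zfp598 had 120 and 141 against 147 and 126 CPM, a log2 fold change of 0.06 ± 0.13. Zfp593, a factor of large subunit assembly, stood at 0.23 ± 0.18. Zfp622, which acts late in the same assembly, had 106 and 62.1 against 111 and 60.5 CPM, so that replicates of a number were alike and labels were not apart. Zfp207, which helps attach chromosomes to the spindle, had 198 and 161 against 172 and 192 CPM, at 0.02 ± 0.13, and Zfp367 stood at 0.11 ± 0.18.

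Of 12 members listed for transcription and chromatin, 9 were above 0 and 3 had an unadjusted p under 0.05, all on the higher side. Over all genes these shares were 48.1% above 0 and 5.7% on the higher side, and over all members 67.3% were above 0. The 3 were Zfp609, Zfp451 and Zfp638, which recruits the HUSH complex to foreign DNA. Without labelled KO replicate 2, the log2 fold change was 0.46 for Zfp609, 0.15 for Zfp451 and 0.26 for Zfp638. Zfp638 had 42.9 and 38.5 against 48.4 and 59.8 CPM, a log2 fold change of 0.41 ± 0.16 (adjusted p = 0.359 by edgeR). Zfp410, known for driving transcription of Chd4, stood at 0.02 ± 0.16, and Chd4 itself at 0.07 ± 0.12. Zfp143, a promoter-binding factor, was at 0.06 ± 0.15, with 390 and 458 against 391 and 430 counts. Zfp217, a partner of corepressor complexes, was at -0.20 ± 0.19, and without labelled KO replicate 2 it was at 0.059. Zfp148, Zfp281, Zfp326, Zfp384, Zfp644 and Zfp687 lay between -0.04 and 0.23.

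No gene of the silencing machinery that KRAB members use passed the threshold. Of 25 genes of the KAP1 and HUSH list tested, 0 passed the adjusted threshold by edgeR and 0 by DESeq2, 17 were above 0 and the median was 0.10. Trim28, the KAP1 gene, had 7497 and 11269 counts against 9075 and 8796, a log2 fold change of 0.06 ± 0.13. Over all genes 48.1% were above 0. At an unadjusted p under 0.05 there were 6 of 25 on the higher side and 0 on the lower, where all genes gave 5.7% and 7.23%. The higher count was 1 with the replicate block, 4 by limma, 5 by DESeq2 and with no filter, and 8 with crossed replicate pairs as the block. On the lower side there was 1 by DESeq2, with no filter and with either block. The higher count also fell without labelled WT replicate 2 and without either replicate labelled KO. Over all genes, in either direction, the share at this p was 10.1% with the replicate block and 17.8% with the crossed one. With 1 library left out, the median of the 25 was 0.06 to 0.12, and 15 to 19 were above 0. In the main fit the 6 included Setdb1 at 0.36 ± 0.10, the remodeler Smarcad1 at 0.34 ± 0.14 and the methyltransferase Suv39h2 at 0.41 ± 0.16. The others were the HUSH-linked genes Mphosph8 at 0.39 ± 0.15, Pphln1 at 0.32 ± 0.10 and Morc2a at 0.34 ± 0.12. Setdb1 had 1257 and 1659 against 1651 and 1814 counts, and its adjusted p was the lowest of the list, 0.238 by edgeR.

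Members lay in 23 runs of at least 3, with neighbouring starts within 500 kb, which together held 155 members. KRAB was found in 81.9% of members inside the runs and 36.7% of those outside. Medians of the runs ranged from -0.24 to 0.63, and 17 of 23 were above 0. Without labelled WT replicate 2 it was 12 of 23, and without labelled KO replicate 2 it was 11. The longest run, 21 KRAB members on chromosome 13 from Zfp712 to Zfp273, had a median of 0.15, with 15 above 0, but without labelled WT replicate 2 the median was -0.13, with 6 above 0, and without labelled KO replicate 2 it was -0.04, with 10 above 0. A run of 18 KRAB members on chromosome 17 from Zfp160 to Zfp213 had a median of 0.11, with 12 above 0, and of -0.05, with 5 above 0, without labelled KO replicate 2. In these 2 runs together 1 member, Zfp944 at 0.49, had an unadjusted p under 0.05.

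**Figure D5:**
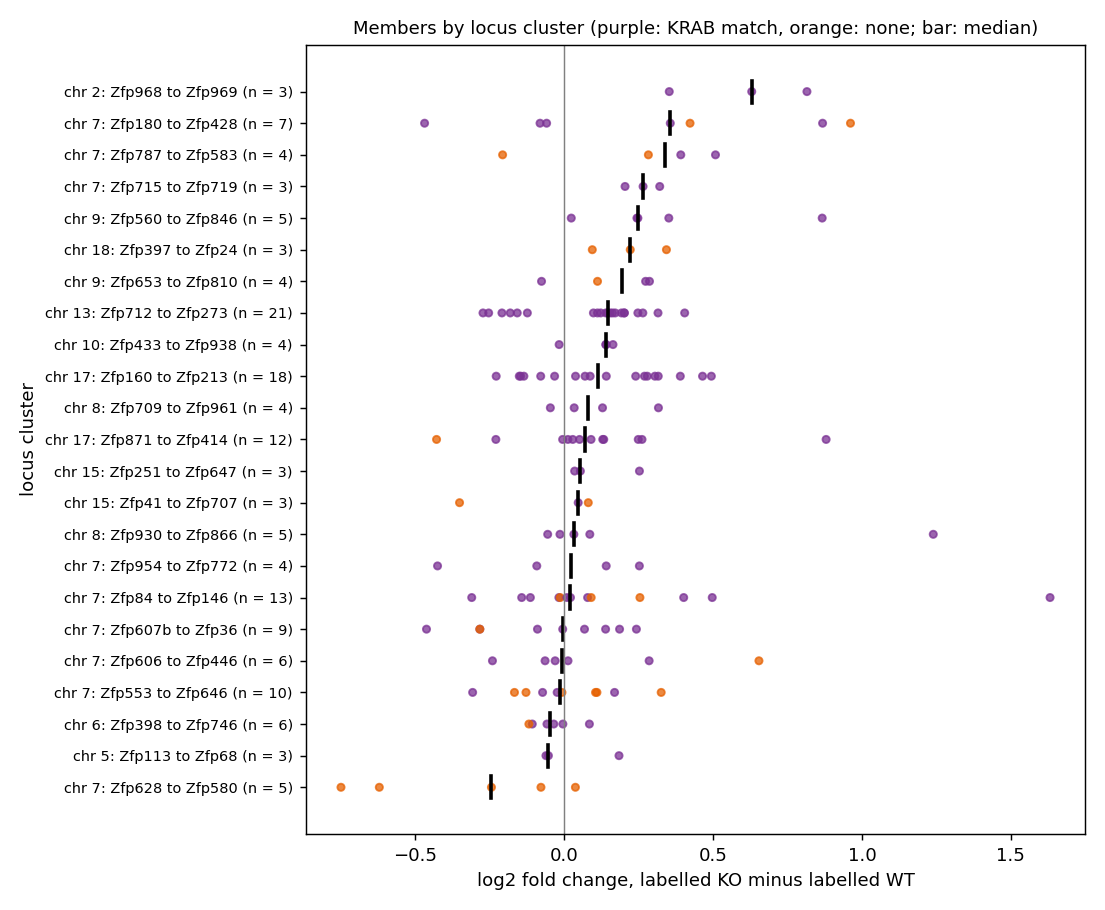
Log2 fold change, labelled KO minus labelled WT (horizontal), of the members of each of the 23 runs (vertical, named by first and last member), purple with and orange without a KRAB match, with a bar at the median. Medians range from -0.24 to 0.63, and the single points beyond 1 are Zfp568 and Zfp930.

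The highest median, 0.63, was that of Zfp968, Zfp965 and Zfp969 on chromosome 2, which had 21 to 62 counts in a library. It ranged from 0.23 to 0.94 with 1 library left out. Of their 31-base words, 2.67%, 2.06% and 0.00% are their own, so these 3 values are uncertain and not independent. The lowest, -0.24, was that of 5 members without KRAB on chromosome 7, Zfp628, Zfp579, Zfp524, Zfp865 and Zfp580. It is the value of Zfp865, which had 609 and 462 against 402 and 464 counts, and without labelled WT replicate 1 the median was 0.03. Zfp524, known to bind telomeres, had 151 and 194 against 59 and 133 counts, at -0.75 ± 0.33. An overlapping read-through gene, Gm44973, took 45 counts in labelled KO replicate 1 and 0 in the other 3, and the sums were 151 and 194 against 104 and 133. Scaled, these sums were 11.6 and 11.4 against 7.82 and 9.21 CPM, so the libraries labelled KO stayed lower. For Zfp82, the read-through gene Gm26920 took 49 counts in labelled KO replicate 1 alone, and the sums were 149 and 172 against 136 and 156. In scaled units Zfp82 with Gm26920 was at 11.4 and 10.1 against 10.2 and 10.8 CPM, so the low count of Zfp82 in that library went with the count given to the read-through gene.

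Across all members, a median of 98.3% of 31-base words were their own, and 14 members, all KRAB, had fewer than 50%. Their median log2 fold change was 0.13, against 0.08 for the 194 members with at least 95%. Exons shared with another gene on the same strand were found in 28 members. The locus overlapped another gene of the table in 124 members. In the 170 members without such overlap the median was 0.09, and 118 were above 0.

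The count minimum itself left out genes that were low under 1 label. Just inside it stood 14 members with a lowest count of 20 to 22, among them Zfp647 with 20 and 38 against 30 and 33 counts and Zfp493 with 41 and 41 against 20 and 45. Just outside, with a lowest count of 17 to 19, stood Zfp54 with 19 and 41 against 45 and 82 and Zfp119a with 18 and 32 against 32 and 33. Of genes with at least 20 counts in both libraries of 1 label and fewer in a library of the other, 2 were low under the KO label, Zfp987 with 25 and 25 against 7 and 0 and Zfp551 with 31 and 25 against 14 and 21. On the other side 5 were low under the WT label, namely Zfp54, Zfp119a, Zfp28, Zfp2 and Zfp937. With all 321 tested Zfp genes in place of the 294, an alternative added after seeing the data, the median was 0.10 and 218 were above 0.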

How the data were processed

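RNA was measured in 4 libraries of activated CD8+ T cells, 2 per genotype label, grouped by genotype field and title. Per the labels' protocols, mRNA was purified and sequenced with a stranded kit. Per the file headers, the authors deposited raw counts per gene, and FPKM, which divide counts by gene length and library total. The submitters' processing notes name kallisto and GRCm38; they give no version, counter or use of strand. The table holds 8 other value columns, not used.

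Genes were filtered by filterByExpr (13528 left), scaled by TMM and tested by the edgeR 4.0.16 quasi-likelihood test in R 4.3.3 (two-sided, Benjamini-Hochberg over all genes, threshold 0.05). The biological coefficient of variation was 15.9%. SE is the log2 fold change over the root of F. With 2 libraries per label an exact permutation test of a single value cannot go below p = 0.333, so p-values rest on the spread pooled over genes and measure only the spread between these samples. Library totals were 12967251, 17316284, 13394074 and 14199020 counts.

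Members and lists were chosen with earlier results of these data known. Named members were those past the threshold, the 10 of lowest p in each direction, the 5 of highest FPKM, those on lists of known roles, the neighbours of Zfp568 and those next to the count minimum; others were named after their values were seen. Domains came from GENCODE M21 coding sequences: KRAB by a HMMER 3.4 profile (E at most 0.001), fingers by pattern. Of the 294 members, 268 lie at the same coordinates there. Alternatives were other scaling, DESeq2 1.42.0, no filter, a replicate block, limma 3.58.1 on log2(FPKM + 1 or 0.1), other minima and each library left out. Same-numbered libraries deviated oppositely (r = -0.18 across genes), so the numbers were not taken as pairs. The fitting script was tested on simulated data.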

Additional observations from a re-analysis of the deposited data

How the results depend on the processing

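The 1 member called became 6 by DESeq2, 3 with no filter on low counts, 4 with the replicate block, and 0 by limma on log2(FPKM + 1) and on log2(FPKM + 0.1). The block also changed the calls over all genes from 28 to 123. With crossed replicate pairs as the block, added after seeing the data, 0 members and 12 genes were called. With 1 library left out, 0 to 7 members were called: 3, 7, 4 and 0 without labelled WT replicates 1 and 2 and labelled KO replicates 1 and 2, where 266, 199, 54 and 3 of all genes were. With no filter the calls over all genes were 146 of 21960, and by DESeq2 276. By limma they were 5 and 4 of 13528 with pseudocounts of 1 and 0.1. The 25 members at an unadjusted p under 0.05 became 16 by DESeq2, 15 by limma with a pseudocount of 0.1, 14 among members that overlap no gene, and 16 to 36 with 1 library left out. The log2 fold change of Zfp568 was 1.63, 1.09 and 1.57 where its call was lost, under the crossed block and limma with pseudocounts of 1 and 0.1, and 1.54 to 1.73 with 1 library left out. Its adjusted p ranged from 6.4e-12 to 0.134. Partner genes called ranged from 0 to 1 with 1 library left out. The members' median stayed from 0.06 to 0.10 under the settings that keep all 4 libraries and from 0.00 to 0.19 with 1 left out. Signs turned for Zfp148 without labelled WT replicate 2 (-0.00063, up to 0.38 with another library left out), Zfp82 without labelled KO replicate 1 (0.0033, down to -0.72), and Zfp280b (-0.051, up to 0.65) and Zfp217 (0.059, down to -0.50) without labelled KO replicate 2. Zfp46 turned too without labelled KO replicate 2 (-0.51, up to 2.06). Of all 113 members with a log2 fold change beyond its SE, 10 turned sign with 1 library left out. Members named here that were not called passed as follows: Zfp930 and Zfp990 with the replicate block, Zfp930 and Zfp263 with no filter, Zfp930 without labelled WT replicate 1 (1.28), Zfp263 (-1.14), Zfp395 (-1.02), Zfp260 (1.61) and Zfp292 (2.64) without labelled WT replicate 2, and Zfp990 (2.16), Zfp422 (3.02) and Zfp451 (1.35) without labelled KO replicate 1. The cause of these changes was not tested. With 1 library left out, the lone library of a label is assumed to vary like the others. At 20 to 50 counts a member's fold change is set by few reads.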
